A study of Mus musculus with 2 samples.

Results

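Cells like group 2 innate lymphoid cells (ILC2s) were picked out of single cells sorted from mouse skin. They were rich in RNA of Calca, the gene for the neuropeptide CGRP. They are 197 of the 1471 cells of cell set 1 (13.4%) and of the 5246 cells deposited in all. A cell was chosen by 4 values: at most 10% mitochondrial UMIs, fewer than 3 UMIs of Mki67, Top2a and Birc5 together, at least 1 UMI of Gata3 and at least 10 UMIs of Calca. UMIs are tags by which each captured RNA molecule is counted singly. These cells, called Calca-high, were set against the 327 cells of set 1 that met the same conditions and held no Calca UMI, called Calca-zero. A further 264 cells held 1 to 9 Calca UMIs, so that 788 cells of set 1 met the other conditions.

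According to the labels the ILCs came from the skin of the mouse strain C57/BL6, 1 library from postnatal day 1 and 1 from postnatal day 14. The skin was treated with collagenase A, and cells positive for CD45 and Thy1.2 and negative for lineage markers were collected by flow cytometry for the 10x Genomics 5' kit. Neither the number of animals behind a library nor their sex is given in the sources used here. The name suffix that defines sets 1 and 2 matches neither day's label, so no set was given an age. With 1 library behind each set there were no replicates and no test. The intervals below are 95% intervals of counting error, which treat UMIs as independent although a few cells can hold many of them.

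ILC2s are tissue lymphocytes that depend on GATA3 and answer the epithelial alarmins IL-33, IL-25 and TSLP with the type 2 cytokines IL-5 and IL-13. CGRP is best known from sensory nerves, where it is stored in vesicles and widens blood vessels, and some ILC2s also make it. It acts through the receptor CALCRL joined to the accessory protein RAMP1, which raises cAMP in the receiving cell, while RAMP2 and RAMP3 turn CALCRL towards adrenomedullin.

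The label was checked against markers. Calca and Gata3 were used for the choice, and Igsf5 and Hs3st1, also given as markers, stood at 377 and 174 CPM (UMIs per 1000000 UMIs of the group) in Calca-high and at 134 and 66.9 CPM in Calca-zero cells. The 13 ILC2 markers summed to 5915 CPM in Calca-high and 4100 CPM in Calca-zero cells, and 7 of them reached 50 CPM in Calca-high and 8 in Calca-zero cells. Gata3, used for the choice, is one of them, and without it the sums were 5046 and 3552 CPM. Rora and Icos, given below, made up much of both sums. Among the listed genes Il5, Il1rl1, Il2ra, Rora, Icos and Areg were higher in Calca-high cells, and Il4, Il13, Il17rb, Ptgdr2 and Arg1 lower. The 10 ILC precursor markers summed to 625 CPM in Calca-high and 889 CPM in Calca-zero cells. Of these, 8 reached 20 CPM and 5 reached 50 CPM in Calca-high cells, against 9 and 7 in Calca-zero cells. The 12 ILC3 markers summed to 96.4 and 421 CPM and the 10 ILC1 and NK markers to 315 and 573 CPM, Calca-high cells first. Tbx21, Eomes, Ncr1 and Klrb1c, which define ILC1 and NK cells, and Cd4 had no UMI in Calca-high cells. Ncr1 had none in Calca-zero cells either. Of the 10 ILC1 and NK markers, 2 reached 50 CPM in Calca-high and 3 in Calca-zero cells. T cell markers summed to 536 and 790 CPM, of which Cd3g gave 373 and 579 CPM. Markers of Merkel cells and of sensory neurons with Schwann cells, skin cells in which neuropeptides occur, summed to 1.26 and 3.37 CPM in Calca-high cells, and 6 of the 7 Merkel markers in the table were at 0. Keratinocyte markers summed to 269 and 247 CPM. Mast cell and basophil markers summed to 229 CPM (211 to 250) in Calca-high and 147 CPM (133 to 162) in Calca-zero cells, mostly from Kit (144 and 79.5 CPM), which is also an ILC precursor marker here, and with Hdc at 31.6 and 6.69 CPM. Of the 10 genes, Fcer1a, Mcpt8 and Ms4a2 were at 0 in Calca-high cells. The part of these cell types in the results was not tested.

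Calca lies on the minus strand of chromosome 7 from 114631478 to 114636357 (GRCm38, the assembly that the name mm10 stands for). The Calca-high cells held 5314 of its UMIs, 51.1% of those in the 1441 cells of set 1 within the mitochondrial limit. A Calca-high cell held 10 to 194 Calca UMIs with a median of 19, and 73 cells held 25 or more. Because the choice used a raw UMI count, depth moves with it. Calca-high cells had a median of 11881 UMIs and 2743 genes, and Calca-zero cells 8390 UMIs and 2252 genes. Ranked by Calca per 10000 UMIs instead, the first 197 cells shared 180 with the chosen ones. Of the 4 barcodes that occur in both sets, none belonged to a Calca-high cell and 1 to a Calca-zero cell.

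**Figure D1:**
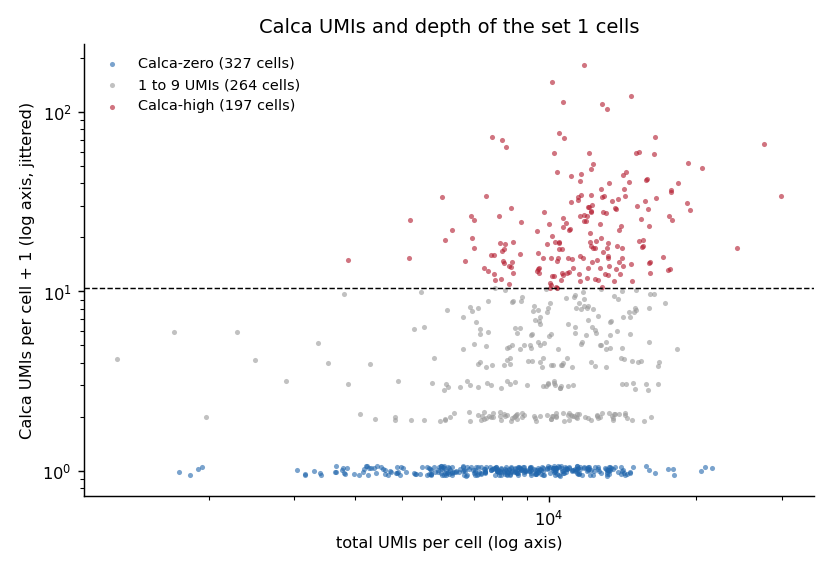
Each point is a cell of set 1, with its total UMIs on the horizontal axis and its Calca UMIs plus 1 on the vertical axis, both on log axes, and the dashed line marks the threshold of 10 UMIs. The 197 Calca-high cells reach 194 Calca UMIs and lie towards the deeper side, with a median of 11881 UMIs against 8390 in the 327 Calca-zero cells.

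The 250 bases before the RefSeq start of 4 genes are shown, 5' to 3' on the gene's strand (GRCm38.p6): Calca, which chose the cells; Ldha, whose level followed that of Calca most closely; and Creb3l2 and Il5, among the genes with the highest ratios. None of these windows overlaps an annotated exon. Capitals mark the cAMP response element TGACGTCA or its core TGACG, which CREB-type factors bind, and the core ACGTG of hypoxia response elements, each searched on both strands; the core TGACG lies within the full element.
Calca, chr7:114636358-114636607, minus strand: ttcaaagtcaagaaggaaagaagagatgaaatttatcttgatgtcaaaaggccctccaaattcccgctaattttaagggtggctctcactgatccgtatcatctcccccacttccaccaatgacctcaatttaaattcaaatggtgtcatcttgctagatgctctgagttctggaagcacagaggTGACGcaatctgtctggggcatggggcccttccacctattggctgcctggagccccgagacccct
Ldha, chr7:46845554-46845803, plus strand: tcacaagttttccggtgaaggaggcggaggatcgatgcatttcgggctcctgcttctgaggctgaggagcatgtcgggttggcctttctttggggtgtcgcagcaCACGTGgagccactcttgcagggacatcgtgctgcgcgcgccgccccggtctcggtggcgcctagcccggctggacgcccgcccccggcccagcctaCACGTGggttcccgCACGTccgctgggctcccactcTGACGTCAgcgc
Creb3l2, chr6:37442149-37442398, minus strand: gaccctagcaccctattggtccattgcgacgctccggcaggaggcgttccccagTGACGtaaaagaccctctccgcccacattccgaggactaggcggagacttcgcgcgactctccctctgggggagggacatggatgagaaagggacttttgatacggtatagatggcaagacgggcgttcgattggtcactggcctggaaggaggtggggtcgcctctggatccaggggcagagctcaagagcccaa
Il5, chr11:53720544-53720793, plus strand: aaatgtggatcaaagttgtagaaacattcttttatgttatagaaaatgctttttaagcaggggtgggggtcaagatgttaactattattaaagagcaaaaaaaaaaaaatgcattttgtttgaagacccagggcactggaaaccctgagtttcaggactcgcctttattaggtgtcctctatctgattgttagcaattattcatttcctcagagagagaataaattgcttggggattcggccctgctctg

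The Calca window holds the core TGACG from -65 to -61, counted from the start. The Ldha window holds the full element from -12 to -5 and ACGTG between -145 and -140, between -48 and -43 and from -34 to -30. RefSeq gives Ldha a second start, whose window (not printed) holds TGACG from -143 to -139 and neither the full element nor ACGTG. In the Creb3l2 window TGACG stands from -196 to -192, and these letters are not in the Il5 window. Of 27025 genes with such windows, 19.8% held TGACG in at least 1 window, 1.77% the full element and 18.5% ACGTG. Among the 15 genes with the highest ratios, described next, 11 had an entry and 5 of these held TGACG (Creb3l2, Npnt, Slc16a3, Il1rl1 and Ldha), while 0 of 12 matched genes among the 15 with the lowest ratios did. For ACGTG these counts were 3 of 11 and 1 of 12. The window of Fos, lower in Calca-high cells, holds TGACG at -129 to -125 and at -66 to -62, and that of Ramp3, which was higher, holds neither motif. Of the other motifs searched, the GATA motif AGATAA lies in the Calca window from -218 to -213, not in capitals. It was held by 2 of the 11 and 2 of the 12 genes, and by 11.4% of all genes with windows. The AP-1 motif TGANTCA was held by 0 of 11 and 0 of 12 (7.82% of all), and CCAAT by 3 of 11 and 4 of 12 (37.5%). A match describes letters and is not a site of binding.

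The comparison of Calca-high with Calca-zero cells asked which other RNAs went with Calca. UMIs were summed over the cells of a group, and a gene with at least 100 UMIs over both groups was called past a 2-fold ratio of CPM + 10. Of 4987 genes, 44 were at least 2-fold higher (0.882%) and 76 at least 2-fold lower (1.52%) in Calca-high cells. Every gene of these cells was measured in the contrast that chose them, so the counts describe the chosen cells. With cells of 8000 to 14000 UMIs alone, 127 and 162 cells with medians of 11512 and 10224.5 UMIs, 29 genes were higher and 51 lower. Without the 18 Calca-high and 72 Calca-zero cells that held a UMI of Fcer1g, Tyrobp, Il22, Cd4 or Xcl1, 47 genes were at least 2-fold lower; both settings were chosen after the data were seen.

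**Figure D2:**
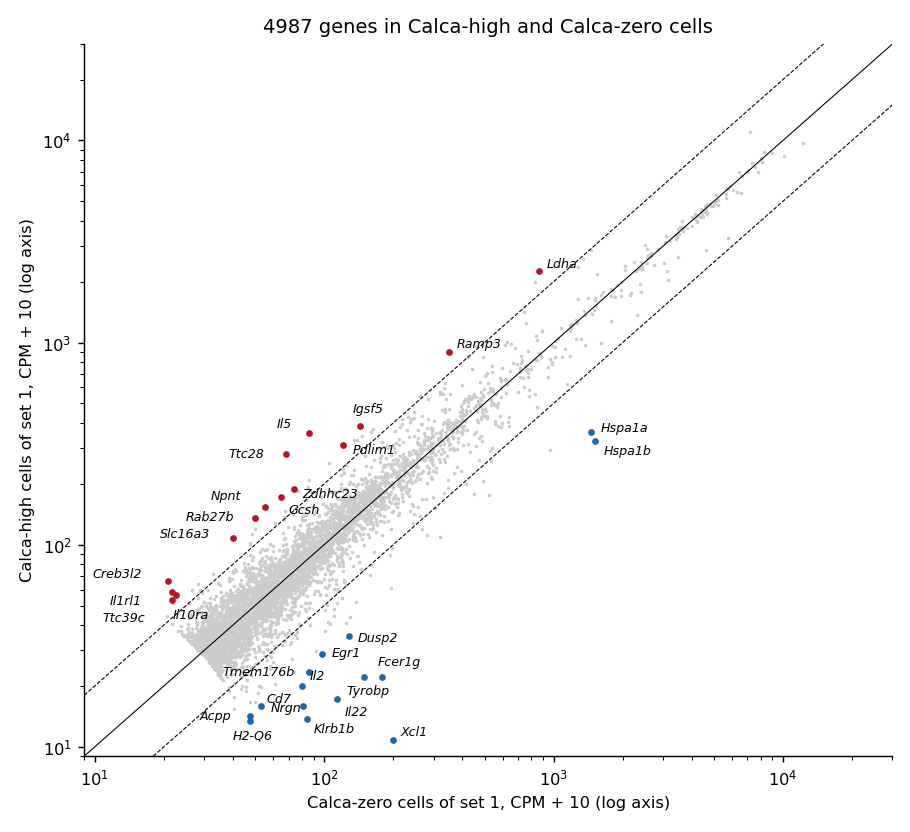
Each point is 1 of 4987 genes, with CPM + 10 in Calca-zero cells on the horizontal and in Calca-high cells on the vertical axis, both on log axes; dashed lines mark a 2-fold ratio. The 15 highest ratios (red) include Il5, Ldha and Ramp3, and the 15 lowest (blue) include Xcl1, Fcer1g and the heat-shock genes Hspa1a and Hspa1b.

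Among the partners of CGRP, the receptor accessory genes stood on opposite sides. Ramp3 was at 890 CPM in Calca-high and 340 CPM in Calca-zero cells, a 2.62-fold ratio (2.43 to 2.83). With each cell thinned to 6257 UMIs, 87.5% of Calca-high and 46.1% of Calca-zero cells had a Ramp3 UMI. So did 57.1% of the Gata3-free cells, the cells of set 1 that met the mitochondrial and cycling conditions and held no Gata3 UMI. Ramp1, the accessory protein of the CGRP receptor, was at 6.74 CPM in Calca-high and 39.8 CPM in Calca-zero cells, 5.90-fold lower (3.48 to 10.7). Its ratio of CPM + 10, -1.57 on the log2 scale, shrank to -0.52 without the cells with a UMI of Fcer1g, Tyrobp, Il22, Cd4 or Xcl1. The receptor gene Calcrl was at 20.2 and 19.7 CPM, a ratio of 1.03 (0.683 to 1.54), and Ramp2 had 6 and 7 UMIs. Calcb, which encodes a near-identical CGRP and lies on chromosome 7 from 114718643 to 114723365, had 32 UMIs in Calca-high cells and 1 in Calca-zero cells, and 13 of the 32 were in 1 cell. Reads of such near copies may be split between the genes, so the Calcb value is uncertain. Adm, the gene for adrenomedullin, was at 12.2 and 24.6 CPM. Of the 6 measured genes of the CGRP system besides Calca, 4 were higher and 2 lower, with a median log2 ratio of 0.17. Over all 8881 genes with at least 20 UMIs, the minimum used for lists, 45.7% were higher and the median was -0.03.

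Il5, the growth factor of eosinophils, had the highest ratio of CPM + 10 outside the genes used for the choice, while other type 2 cytokines were lower or close to equal in Calca-high cells. Il5, on chromosome 11 from 53720794 to 53725106, was at 347 CPM in Calca-high and 75.7 CPM in Calca-zero cells, a 4.59-fold ratio (3.94 to 5.35). In thinned cells an Il5 UMI was present in 43.2% of Calca-high, 18% of Calca-zero and 5.56% of Gata3-free cells. The fullest Calca-high cell held 81 Il5 UMIs, and without the fullest cell of each group the ratio was 4.93. Il13 went slightly the other way, at 200 and 242 CPM, with a UMI in 42.2% and 41.6% of thinned cells. Areg, which encodes the repair factor amphiregulin, was at 771 and 685 CPM. Il4 was at 34.5 CPM in Calca-high and 100 CPM in Calca-zero cells, but 1 Calca-zero cell held 54.0% of the Il4 UMIs of its group and the ratio without the fullest cells was 1.66-fold lower. Csf2, the gene for GM-CSF, was at 48.4 and 104 CPM. Without the cells with at least 5 UMIs of Hspa1a and Hspa1b, the log2 ratios of Il4 and Csf2 were -0.10 and -0.079. Of 11 measured type 2 effectors besides Calca, 4 were higher and 7 lower, with a median of -0.16. On the opposite strand Il5 overlaps Gm12214, which had 1 and 0 UMIs.

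Receptors and transcription factors of ILC2s differed gene by gene. Il1rl1, the receptor of IL-33, was at 48.4 CPM in Calca-high and 11.6 CPM in Calca-zero cells, a 4.17-fold ratio (2.81 to 6.34), and thinned shares of cells were 13.0% and 3.67%, with 2.38% of Gata3-free cells. Its log2 ratio, 1.43, was 0.92 in cells of 8000 to 14000 UMIs and 0.26 in those of 10040 to 10652.5 UMIs. Il10ra, a chain of the IL-10 receptor, was at 46.3 and 12.7 CPM. Il17rb, a chain of the IL-25 receptor, was at 10.5 and 17.9 CPM. The 19 measured alarmin and cytokine receptors divided into 9 higher and 10 lower, with a median of -0.09. Gata3 itself, used at a minimum of 1 UMI in both groups, was at 869 and 549 CPM. Rora, a transcription factor needed for ILC2s to form, was at 2183 and 1535 CPM, and Pparg, a lipid-sensing nuclear receptor, at 41.3 and 12 CPM. Tcf7, a factor of early ILC stages, was at 37.9 and 100 CPM, and its log2 ratio was -0.54 without the cells with a UMI of Fcer1g, Tyrobp, Il22, Cd4 or Xcl1. Of the 15 ILC2 transcription factors, 7 were higher and 8 lower.

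Costimulatory genes were mostly higher in Calca-high cells, 9 of 12 measured with a median of 0.51, and 2 were at least 2-fold higher. These were Tnfrsf9 (4-1BB), at 243 and 94.7 CPM, and Tnfrsf4 (OX40), at 49.7 and 16.5 CPM. Icos, the costimulator of T cells and ILC2s, was at 1235 and 745 CPM and was found in 97.4% and 82.9% of thinned cells, against 77.8% of Gata3-free cells. Vsir, a checkpoint gene, was at 4.21 and 14.1 CPM. In the 22 Calca-high and 23 Calca-zero cells of 10040 to 10652.5 UMIs, Tnfrsf9 and Tnfrsf4 had log2 ratios of -0.067 and -0.77, below 0, and Vsir one of 0.58, above it.

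Glycolysis was the list with the highest median. Of 14 genes, 13 were higher in Calca-high cells and 1 was lower, with a median log2 ratio of 0.75. Ldha, the subunit of lactate dehydrogenase that makes lactate, was at 2240 CPM in Calca-high and 854 CPM in Calca-zero cells, a 2.62-fold ratio (2.50 to 2.75). Scaled per cell to 10000 UMIs, Calca-high cells had a median of 19.5 Ldha UMIs with quartiles of 12.2 and 28.6. Calca-zero cells had a median of 4.91 with quartiles of 2.36 and 10.4. The quartile ranges of the groups did not overlap, but Ldha was named for its high ratio in this same contrast. The share of all genes with such a gap was not computed. Slc16a3, a lactate exporter, was at 98.5 and 29.9 CPM, and Pgk1, a kinase of the pathway, at 514 and 275 CPM. Pgam1 and Tpi1 were at 263 and 354 CPM in Calca-high cells and at 140 and 194 CPM in Calca-zero cells. Oxidative phosphorylation genes had a median of 0.13, with 11 of 14 higher, and ribosomal protein genes a median of 0.05, with 10 of 13 higher. The glucose transporter gene Slc2a1 was at 63.2 and 49.6 CPM.

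Genes that answer cAMP did not move as a list. Of 16 measured, 8 were higher and 8 lower, with a median of -0.04. Crem, a cAMP-induced transcription factor, was at 624 CPM in Calca-high and 327 CPM in Calca-zero cells, and Creb3l2, a CREB-related factor of the secretory pathway, at 56.0 and 10.9 CPM. Pde4d, which breaks down cAMP, was at 77.1 and 39.1 CPM, whereas Nr4a1 was at 471 and 840 CPM (log2 ratio 0.24 in the cells of 10040 to 10652.5 UMIs).

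Machinery for stored peptides was read by a list of regulated-secretion genes. Of 20 regulated-secretion genes, 7 reached 20 UMIs over both groups, 3 of them higher and 4 lower. Of the 18786 genes in all, 8881 reached this minimum, not counting the genes used for the choice. Rab27b, which ties vesicles to the cell cortex, was the exception in size, at 126 CPM in Calca-high and 39.8 CPM in Calca-zero cells, a 3.18-fold ratio (2.55 to 3.98), while its paralogue Rab27a was at 11.4 and 19.7 CPM. Pcsk1, a convertase that cuts prohormones, was at 61.5 and 52.1 CPM. Pam, which amidates peptide ends, had 5 and 13 UMIs, and Cpe, which trims them, 1 and 5.

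Other genes with high ratios came from several functions. Igsf5, an adhesion molecule of cell junctions, was at 377 and 134 CPM, 2.82-fold higher (2.50 to 3.19), and was found in 74.0% of Calca-high, 40.0% of Calca-zero and 16.7% of Gata3-free thinned cells. Npnt, which encodes the matrix protein nephronectin, was at 144 and 45.0 CPM. Ttc28 was at 271 and 58.4 CPM, Pdlim1 at 301 and 111 CPM, and Zdhhc23, a palmitoyltransferase gene, at 179 and 63.7 CPM. Gcsh, of the glycine cleavage system, was at 162 and 54.9 CPM, and Ttc39c at 43.4 and 11.6 CPM. Heparan sulphate enzymes divided into 4 higher and 5 lower, with Hs3st1 and Hs6st2 (34.5 and 10.6 CPM) at least 2-fold higher. In the Notch pathway 6 of 10 measured genes were higher. The ligand Jag1 was at 118 and 51.0 CPM (log2 ratio -0.24 in the cells of 10040 to 10652.5 UMIs) and the target Hes1 at 302 and 190 CPM (-0.70 in those cells), whereas the ligand Dll1 had 0 UMIs in Calca-high and 39 in Calca-zero cells. The log2 ratio of Dll1, -1.25, shrank to -0.065 without the cells with a UMI of Fcer1g, Tyrobp, Il22, Cd4 or Xcl1. Dgat1, which completes triglyceride synthesis, was at 351 and 150 CPM. Ptgs2, the inducible prostaglandin synthase, was at 168 and 153 CPM, a ratio of 1.10 (0.960 to 1.27). Its log2 ratio was -0.90 in the cells of 10040 to 10652.5 UMIs.

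**Figure D3:**
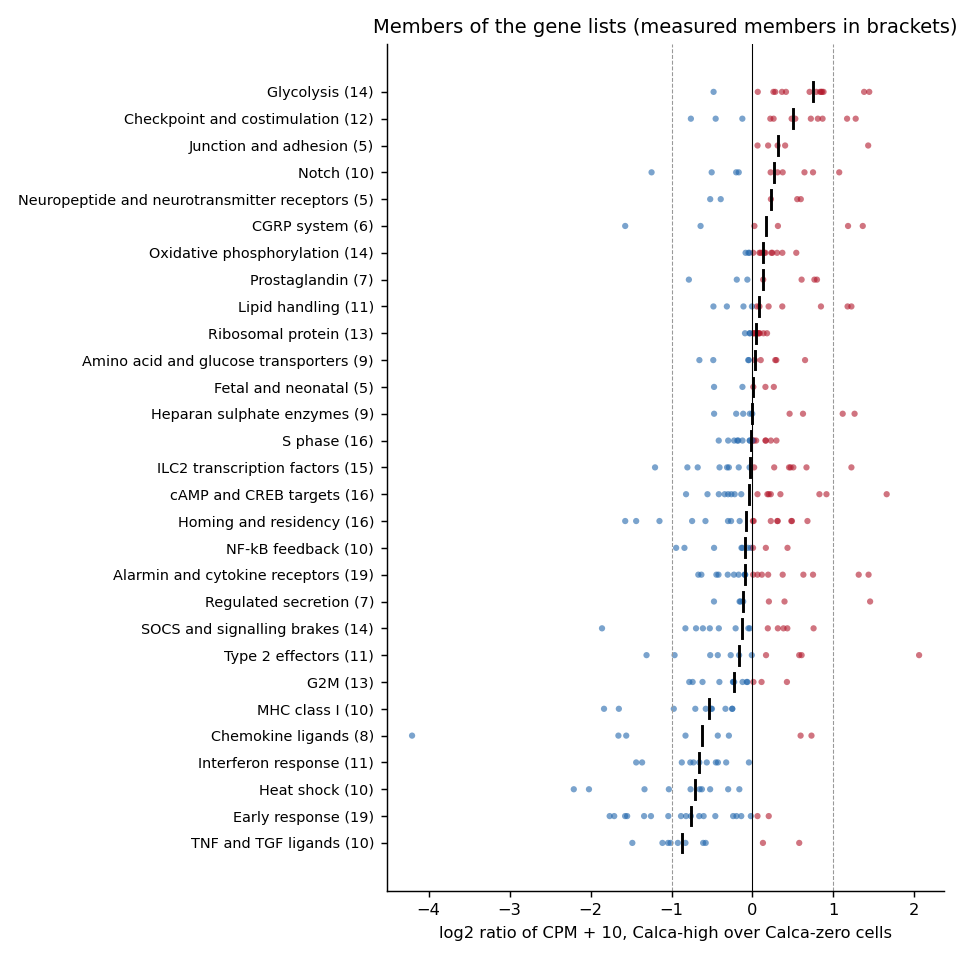
Each point is a list member with at least 20 UMIs, placed by its log2 ratio of CPM + 10 (Calca-high over Calca-zero cells, red above 0 and blue below), black bars are list medians and dashed lines mark a 2-fold ratio. Glycolysis has the highest median, 0.75, and the TNF and TGF ligands the lowest, -0.87.

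Genes known from other lymphoid and myeloid cells were among the lowest. Fcer1g and Tyrobp, adaptors that carry signals of NK cell and myeloid receptors, were at 12.2 CPM each in Calca-high cells and at 168 and 139 CPM in Calca-zero cells. In thinned cells Fcer1g was found in 1.56% of Calca-high, 16.7% of Calca-zero and 50% of Gata3-free cells. Il22, the cytokine of ILC3s that acts on epithelium, was at 7.16 and 104 CPM, and Tmem176b, also an ILC3 marker here, at 13.5 and 76.0 CPM. Klrb1b, a lectin-like receptor, had 9 UMIs in Calca-high and 210 in Calca-zero cells, and Cd7, a surface protein of early lymphoid cells, 14 and 201. Acpp had 10 and 107 UMIs and Nrgn 14 and 123. Xcl1, a chemokine of NK and T cells, had 2 UMIs in Calca-high and 540 in Calca-zero cells, but 55.9% of the latter lay in 1 cell and only 10 Calca-zero cells held any. Cells with a UMI of Fcer1g, Tyrobp, Il22, Cd4 or Xcl1 were 18 of the Calca-high (9.14%) and 72 of the Calca-zero cells (22%). Without them Il2 and Fos kept log2 ratios of -2.05 and -1.74, while Cd7, H2-Q6 and Acpp came to -0.37, -0.13 and -0.42 and Nrgn turned to 0.48.

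Heat-shock and early-response genes were lower together. All 10 heat-shock genes were lower in Calca-high cells, 4 of them at least 2-fold, with a median log2 ratio of -0.71. In the 22 Calca-high and 23 Calca-zero cells of 10040 to 10652.5 UMIs this median was 0.44 and Hspa1a came to 0.33. Hspa1a and Hspa1b, near-identical copies whose reads can be split between them and whose separate values are uncertain, were at 350 and 317 CPM in Calca-high and at 1450 and 1501 CPM in Calca-zero cells. A Hspa1a UMI was found in 21.4% of Calca-high, 48.2% of Calca-zero and 38.9% of Gata3-free thinned cells. Dnajb1, a cochaperone, was at 102 and 272 CPM. Of 19 early-response genes, 17 were lower, 7 at least 2-fold, with a median of -0.76. Fos, part of the AP-1 factor, was at 285 CPM in Calca-high and 953 CPM in Calca-zero cells, 3.35-fold lower (3.08 to 3.65). Jun, its partner, was at 166 and 513 CPM and Egr1 at 18.9 and 88.3 CPM. Dusp2, a phosphatase of MAP kinases, was at 25.3 and 118 CPM, and Il2, the lymphocyte growth factor, at 10.1 and 70.0 CPM. Cells with at least 5 UMIs of Hspa1a and Hspa1b were 21 of the Calca-high (10.7%) and 147 of the Calca-zero cells (45.0%). Without these cells 27 genes were at least 2-fold higher and 43 lower, and Fos kept a log2 ratio of -1.38.

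Interferon-response genes and MHC class I genes were also on the lower side. All 11 measured interferon-response genes were lower, with a median of -0.66, and all 10 MHC class I genes, with a median of -0.54. Isg15 was at 41.3 and 75 CPM, and H2-K1, a classical class I gene, at 418 and 629 CPM. Without the cells with a UMI of Fcer1g, Tyrobp, Il22, Cd4 or Xcl1 the medians of the interferon-response and MHC class I lists were -0.19 and -0.12, Isg15 had a log2 ratio of -0.20 and H2-K1 one of 0.11, above 0. H2-Q6 and H2-Q7, at 3.37 and 13.5 CPM in Calca-high and 37.7 and 63.7 CPM in Calca-zero cells, are near copies of each other and uncertain. Of 10 TNF and TGF ligands, 8 were lower, with a median of -0.87, and Tnf was at 8.42 and 41.5 CPM. Tnfsf11 (RANKL) went the other way, at 105 and 67.2 CPM. Homing genes divided into 8 higher and 8 lower. Cxcr6, a chemokine receptor of skin-resident lymphocytes, was at 992 and 616 CPM, while Ccr6 was at 9.68 and 43.3 CPM, Klf2, a factor of circulating lymphocytes, at 10.5 and 51.0 CPM, and Cd69 at 110 and 256 CPM.

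Levels were then followed over 5 steps of Calca in the 788 cells: 0, 1 to 2, 3 to 9, 10 to 24 and 25 or more UMIs, with 327, 122, 142, 124 and 73 cells. Il5 was at 75.7, 119, 181, 241 and 498 CPM in this order, Ramp3 at 340, 418, 637, 730 and 1118 CPM, and Ldha at 854, 1091, 1612, 1992 and 2593 CPM. Each of these levels was higher than the one before it, and Igsf5 did likewise from 134 to 431 CPM. Hspa1a was at 1450, 909, 833, 512 and 118 CPM and Fos at 953, 621, 571, 399 and 122 CPM, each lower than the one before. Other genes broke the order. Il13 was at 242, 299, 215, 266 and 105 CPM, so its lowest level was in the cells with the most Calca. Fcer1g was much lower from the first step on, with 168, 28.2, 5.44, 20.8 and 0 CPM, and Ramp1 similarly, with 39.8, 11.1, 5.44, 6.45 and 7.15 CPM. The median depth of the 5 steps was 8390, 9487, 10064.5, 10936 and 12840 UMIs, and its part in these orders was not tested. The steps were set by the same Calca UMIs as the choice, and the first and last steps belong to the compared groups. Il5, Ramp3, Ldha, Igsf5, Hspa1a and Fcer1g were named for extreme ratios between those groups, so their order at the ends was fixed beforehand.

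**Figure D4:**
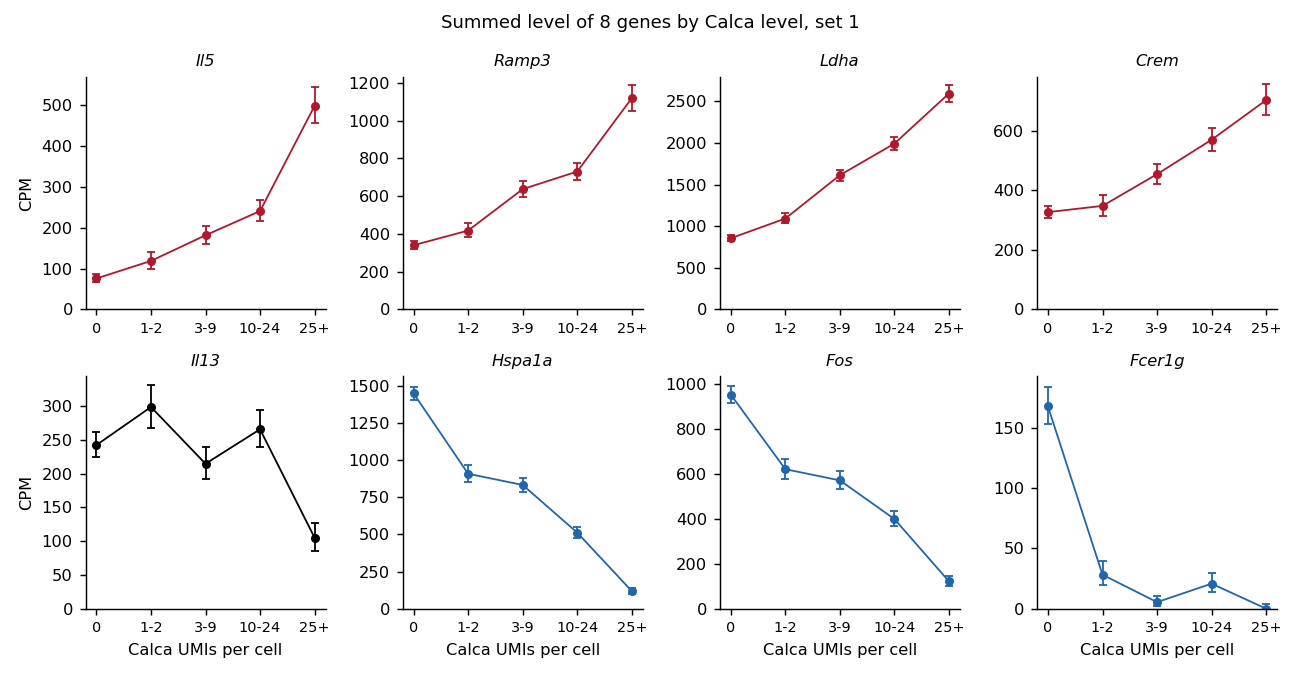
CPM of 8 genes (vertical axes from 0) in cells of set 1 grouped by their Calca UMIs (horizontal axes); bars are 95% intervals of counting error on the summed UMIs. Il5, Ramp3, Ldha and Crem are highest at 25 or more Calca UMIs, Il13 is lowest there at 105 CPM, and Hspa1a and Fos are lower at each step.

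Across the 788 cells, the 5 genes whose level followed that of Calca most closely, by Spearman's rho after scaling each cell to 10000 UMIs, were Ldha (0.47), Sub1 (0.47), Slc25a3 (0.45), Emb (0.41) and Ramp3 (0.41). These cells share a library and differ in depth. They include both groups of the contrast, so rho over them is not independent of it, and Ldha and Ramp3 were already among its highest ratios. Slc25a3 encodes the phosphate carrier of mitochondria and was at 2584 CPM in Calca-high and 1330 CPM in Calca-zero cells, and Emb, a partner of lactate and pyruvate transporters, at 2358 and 1262 CPM. The most opposite genes were Fos (-0.27), Hspa1a (-0.26) and Hspa1b (-0.26). Within the 197 Calca-high cells alone, rho was 0.15 for Ldha, 0.22 for Emb, 0.12 for Ramp3, -0.22 for Fos, 0.017 for Hspa1a and -0.11 for Hspa1b.

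Just inside the threshold, the 41 cells with 10 to 12 Calca UMIs were at 255 CPM of Il5, 824 CPM of Ramp3 and 2232 CPM of Ldha. The 46 cells with 7 to 9 UMIs, just outside, were at 101, 784 and 1794 CPM. Hspa1a was at 576 CPM inside and 1007 CPM outside. The 320 cells of set 1 with at least 10 Calca UMIs included 107 left out as cycling, 15 without a Gata3 UMI and 1 over the mitochondrial limit. Calca at this level was thus present in 23.7% of the 451 cycling cells (exact binomial interval 19.9 to 27.9%), which had a median of 15545 UMIs, and in 7.43% of the 202 Gata3-free cells (4.22 to 12%), which had a median of 7228.5 UMIs. The 15 cells without Gata3 were at 61.7 CPM of Il5 and 1555 CPM of Ramp3.

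Cell set 2 holds cells that the choice did not use, and it was read by the same conditions. Only 59 of its 2325 cells that met the other conditions held at least 10 Calca UMIs (2.54%), against 25% in set 1, and 1901 held none. Depth differed between the sets, with a median of 6047 UMIs in these 59 cells and 4998 in the 1901. Of 6554 genes, 37 were at least 2-fold higher (0.565%) and 144 at least 2-fold lower (2.2%) in the Calca-high cells of set 2. Of the 30 genes with the extreme ratios in set 1, 23 had the same direction in set 2, 11 of the 15 highest and 12 of the 15 lowest. Only 27 of the 30 had at least 100 UMIs over both groups of set 2. The others were Il22, Tyrobp and Rab27b, with 0, 1 and 1 UMIs in its Calca-high cells. Il22 was counted among the 23 all the same, while Tyrobp and Rab27b were not. Over all 4987 genes the share with the same direction was 60.8%.

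Il5 was at 546 CPM in Calca-high and 262 CPM in Calca-zero cells of set 2, a 2.09-fold ratio (1.80 to 2.41), and was the only one of the 15 highest genes past 2-fold there. Crem came to 1221 and 612 CPM (1.99-fold, 1.81 to 2.19), Dgat1 to 533 and 272 CPM, and Igsf5 to 77.6 and 44.1 CPM. Ramp3 was at 931 and 655 CPM (1.42-fold, 1.27 to 1.59) and Ldha at 1006 and 786 CPM (1.28-fold, 1.15 to 1.42), beside ratios of 2.62 for each in set 1; whether the sets differ was not tested. Hspa1a was at 163 CPM in Calca-high and 842 CPM in Calca-zero cells of set 2, Fos at 316 and 753 CPM, and Il2 at 13.4 and 77.2 CPM. Other genes that differed in set 1 were close to equal in set 2. Ramp1 was at 228 and 210 CPM and Tcf7 at 163 and 159 CPM. Fcer1g was at 18.7 and 19.9 CPM, but with only 7 UMIs in the Calca-high cells, a ratio of 0.939 (0.373 to 1.97). Il1rl1, 4.17-fold higher in set 1, was at 26.8 and 25.2 CPM, a ratio of 1.06 (0.503 to 1.99) with 10 UMIs in the Calca-high cells. Rab27b had 1 UMI in the Calca-high cells of set 2 and Il22 none, so neither could be compared at this depth. Glycolysis genes had a median log2 ratio of 0.31 in set 2, with 12 of 14 higher, and heat-shock genes -0.54, with all 10 lower. Early-response genes had a median of -0.56 there, with 16 of 19 lower, and TNF and TGF ligands -0.50, with 8 of 10 lower. The MHC class I list, all lower in set 1, had a median of -0.03 in set 2, with 4 higher and 6 lower. Interferon-response genes had -0.27, with 3 higher and 8 lower.

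**Figure D5:**
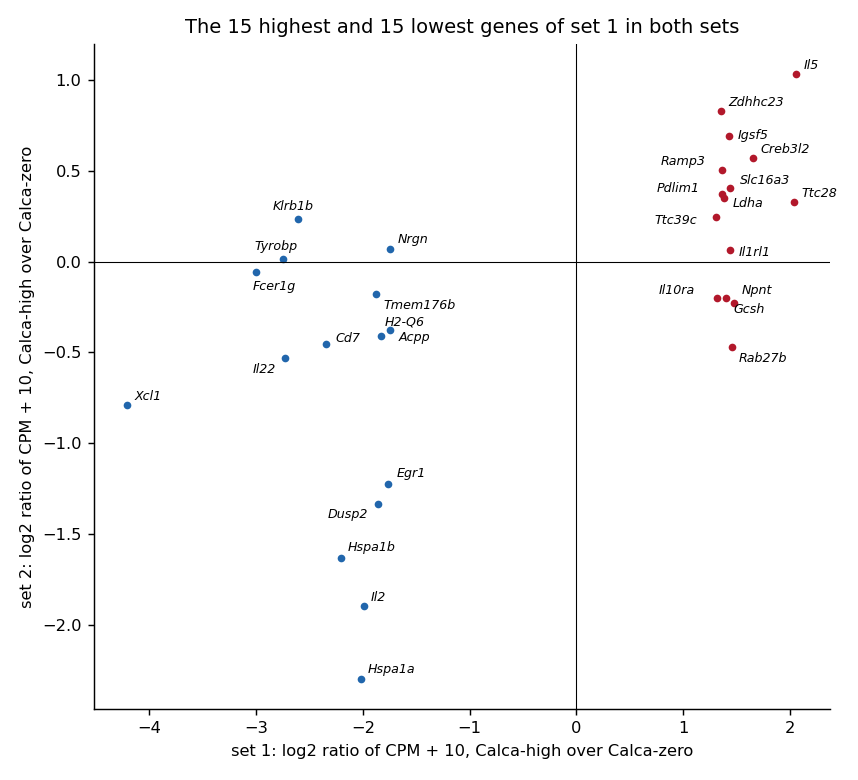
The 15 highest (red) and 15 lowest (blue) genes of set 1 are placed by their log2 ratio of CPM + 10 (Calca-high over Calca-zero cells) in set 1 on the horizontal and in set 2 on the vertical axis. Of the 30 genes, 23 lie on the same side of 0 in both sets, and Il5 at 2.06 and 1.03 is the farthest to the upper right.

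Cells of both sexes were present in both groups. Of the Calca-high cells, 65 (33.0%) held Xist and no Y-linked UMI and 103 (52.3%) Y-linked UMIs and no Xist. Of the Calca-zero cells these were 139 (42.5%) and 122 (37.3%). With either kind alone, Il5, Ldha and Igsf5 stayed more than 2-fold higher. Scrublet, a doublet caller, marked 7 of the 1441 cells, 1 of them Calca-high, a share too low to say that doublets were found.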

How the data were processed

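The deposited table holds whole-number UMI counts of 18786 genes in 5246 cells, which the authors made with Cell Ranger 3.1.0 and Seurat 4.1.0 on mm10, per the submitters' processing notes. Their settings, and whether counting used strand, were not given in the sources used here. Counts were summed over the cells of a group and divided by the group's total (CPM), and genes with at least 100 UMIs over both groups were compared by the ratio of CPM + 10. The Calca-high cells held 2374828 UMIs in all and the Calca-zero cells 2841598. Intervals are 95% intervals, exact Poisson for sums and exact binomial for ratios and shares, and cover counting error only. For shares of cells, UMIs were drawn at random to leave 6257 in every cell, the lower quartile among Calca-zero cells; shallower cells were dropped, namely 5 Calca-high, 82 Calca-zero and 76 Gata3-free cells. No p-value was computed, since cells of 1 library are not replicates. Ratios were tested on simulated data with known changes.

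The genes named are the 15 highest and 15 lowest ratios, without genes used for the choice, unnamed models, Xist, Y-linked, antigen receptor, haemoglobin, mitochondrial and ribosomal protein genes. To these were added, from each of 30 gene lists, up to 6 members by size of ratio among those with at least 50 UMIs, the markers above 20 CPM and the 5 genes most like Calca. Every detected member was eligible for the lists of the CGRP system, regulated secretion, type 2 effectors, Notch and prostaglandins. Some genes that this rule names are not given in the text. The members and lists were chosen with earlier results of these data known. Positions are those of GENCODE vM21, which matched all 241 named genes, and upstream sequences those of RefSeq (GRCm38.p6). TMM factors came from edgeR 4.0.16 and doublet calls from Scrublet in scanpy 1.11.5. Doublets were not removed.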

Additional observations from a re-analysis of the deposited data

Results flagged for a closer look

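Ccl5, a chemokine of cytotoxic lymphocytes, had a log2 ratio of CPM + 10 (Calca-high over Calca-zero cells) of -1.66 in set 1 and 0.97 in set 2. It had 5 UMIs in Calca-high and 80 in Calca-zero cells of set 1, with 63.8% of the latter in 1 cell, and 4 UMIs in the Calca-high cells of set 2. Cxcl10, an interferon-induced chemokine, was at -1.56 in set 1 and 0.77 in set 2, with 34.1 and 120 CPM in Calca-high and Calca-zero cells of set 1 and 126 and 69.5 CPM in those of set 2. In both cases the sets pointed in opposite directions, and with 1 library behind each set the difference was not tested.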

How the results depend on the processing

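Il5 and Ldha were past 2-fold under all 21 alternatives, of which 18 were planned. Of the 30 genes with extreme ratios, only 5 were past 2-fold under each alternative that gave them a value. Ramp3 was not, with a log2 ratio of 0.88 without heat-shock-rich cells. The sign was kept under each such alternative by 28 of the 30 genes, but not by Hspa1a and Nrgn. Xcl1 had a value under 19 alternatives, and Fcer1g, Tyrobp and Il22 under 20. The number of these 30 genes with the same direction in set 2 lay between 19 and 25. The counts of genes at least 2-fold higher and lower (44 and 76) were 74 and 128 with CPM + 1, 6 and 9 with CPM + 100, 22 and 19 with a minimum of 500 UMIs, 25 and 22 with at least 3 Gata3 UMIs, and 29 and 41 in cells with Y-linked UMIs and no Xist. At least 20 Calca UMIs gave 67 higher genes, no Gata3 condition 122 lower genes, cells of 8000 to 14000 UMIs 29 higher genes, leaving out cells with Fcer1g, Tyrobp, Il22, Cd4 or Xcl1 47 lower genes, and leaving out heat-shock-rich cells 27 and 43. Cells of overlapping depth, 10040 to 10652.5 UMIs, were only 22 and 23 and gave 23 and 17 genes. Log2 ratios there lay on the other side of 0 for Hspa1a (0.33), Lif (0.036), Jag1 (-0.24), Tnfrsf9 (-0.067), Tnfrsf4 (-0.77) and Hdc (-0.77). The same held for Hes1 (-0.70), Cxcr6 (-0.14), Il17rb (0.39), Nr4a1 (0.24) and Vsir (0.58). It also held for Il13 (0.58), Ptgs2 (-0.90), Pcsk1 (-0.071) and Slc2a1 (-0.031). Medians on the other side of 0 were those of heat shock (0.44), type 2 effectors (0.32), Notch (-0.46) and regulated secretion (0.60). Those of oxidative phosphorylation (-0.097) and the cAMP list (0.24) were too. These are not all the genes and lists that changed side. Ifitm1 and Tnfsf9 came to 0.11 each in cells with Xist alone. H2-Ab1 came to 0.15 with at least 3 Gata3 UMIs, 0.036 in Y-only cells and 0.25 without the cells with Fcer1g, Tyrobp, Il22, Cd4 or Xcl1, where Nrgn came to 0.48, H2-K1 to 0.11 and Ifitm1 to 0.00603. The cause was not tested. No paired analysis was possible because there is 1 library of each day and no replicate.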
